A study of Rattus norvegicus with 82 samples.

Results

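The response of the rat heart to vincristine at 1 mg/kg was compared between 24 h and 6 h. The comparison was taken as the difference between vincristine and saline at 24 h minus the same difference at 6 h, on log2 intensities. It used 24 of the 82 arrays of the series, 6 in each of 4 groups. The groups were hearts of male Wistar (Crl:Wi(Han)) rats taken 6 h or 24 h after 1 intravenous injection of vincristine in 0.9% saline, or of 0.9% saline alone. The labels give 6 rats for each group and time, and their age is not stated in the labels used here. The other arrays held hearts given vincristine at 0.1 mg/kg, vinblastine or colchicine, and they entered the fit to estimate the spread.

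Vincristine is a vinca alkaloid used against cancers. It binds tubulin dimers and stops them from joining microtubules, the hollow filaments that carry cargo through the cell and, in heart muscle, form a network around the contractile apparatus and the nucleus. Cells sense free tubulin and degrade the messenger RNA of alpha and beta tubulin when it accumulates. RNA of whole heart comes from muscle cells, endothelium, fibroblasts and immune cells, and fewer cells of a type cannot be told apart here from less RNA per cell.

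Genes were sorted by 3 calls made with limma at a Benjamini-Hochberg adjusted p below 0.05: the change at 6 h, the change at 24 h, and the difference between them. A fading gene was called at 6 h and not at 24 h, with a called difference of the sign opposite to its 6 h change. A lasting gene was called at both times in the same direction with no called difference between them. A late gene was called at 24 h and not at 6 h, with a called difference of the same sign. Genes called at 1 time without a called difference were left undecided, since a missed threshold at the other time does not show that the response had ended or not begun.

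The labelled tissue matched its markers. The myosin heavy chain Myh6 lay between 19270 and 27590 on the 24 arrays, and cardiac troponin I, Tnni3, between 20220 and 26260. Some arrays stood apart. Replicate 3 of vincristine at 6 h lay 1.83 times as far from the median profile of its own group as from the nearest other group, which was saline at 24 h, and replicate 1 lay 1.24 times as far, nearest to saline at 6 h. Over the whole series 10 arrays passed a ratio of 1.3 and 12 passed 1.2, of which 1 and 3 were in these 4 groups. The third was replicate 4 of saline at 6 h, with a ratio of 1.22. Outside these groups replicate 6 of colchicine at 0.2 mg/kg and 24 h had a ratio of 1.91 and lay nearest to vincristine at 6 h. The atrial light chain Myl7 stood at 3338 on replicate 2 of saline at 6 h and at 1348 on replicate 1 of saline at 24 h, and between 36.89 and 220.3 on the other saline arrays. All arrays were kept under their labels: whether any were exchanged between groups cannot be told apart here from a heart that responded differently. The main results that rest on these arrays are given with and without them. The ratio was computed from the same values that were tested. The 1 array of these groups above 1.3 lay nearest to saline, so leaving it out favours larger 6 h changes. Calls at 6 h that are kept or gained in that fit are therefore not independent support.

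At 24 h far more genes were called than at 6 h. Of 11320 genes tested, 374 were called at 6 h (3.3%), 232 of them higher and 142 lower than saline. At 24 h 3439 were called (30.4%), 1356 higher and 2083 lower. The difference between the times was called for 1390 genes (12.3%), 400 (3.53%) with a more positive and 990 (8.75%) with a more negative change at 24 h. The direction of these balances depended on the scaling: after quantile normalization 675 differences were positive and 575 negative, 205 genes were higher and 225 lower at 6 h, and 1845 were higher and 1835 lower at 24 h.

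Late genes outnumbered lasting and fading genes, although more of the genes called at 24 h were undecided (58.5%) than late (35.1%). There were 1208 late genes (10.7% of those tested), 300 that rose (2.65%) and 908 that fell (8.02%), against 200 lasting genes (1.77%) and 32 fading genes (0.283%). The lasting genes comprised 136 that were higher and 64 that were lower, and the fading genes 14 that were higher (0.124%) and 18 that were lower at 6 h. A further 10 genes (0.0883%), called turning here, were called in opposite directions at the 2 times: 3 (0.0265%) were higher at 6 h and lower at 24 h, and 7 (0.0618%) the reverse. Another 8 (0.0707%), called growing, rose at both times and rose more at 24 h, while 2013 of the 24 h calls and 124 of the 6 h calls stayed undecided. Without the 10 arrays above a ratio of 1.3, 1395 genes were called at 6 h, and the classes held 1376 late, 726 lasting, 152 fading, 91 growing and 46 turning genes. Without the arrays of high Myl7 there was 1 growing gene and there were 12 turning genes. In the fit without the arrays above a ratio of 1.3, 1110 of the 1208 late genes stayed late. There 192 of the 200 lasting, 29 of the 32 fading, 10 of the 10 turning and 8 of the 8 growing genes kept their classes. Without the arrays of high Myl7, 1043 late, 144 lasting, 21 fading, 8 turning genes and 1 growing gene kept theirs. The calls at 6 h also rested on single arrays: with 1 array left out they numbered from 31, without replicate 4 of vincristine at 6 h, to 717, without replicate 3, and the late genes from 945 to 1361. Treated and saline arrays did not overlap for 1.11% of the genes tested at 6 h and for 20.1% at 24 h.

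**Figure D1:**
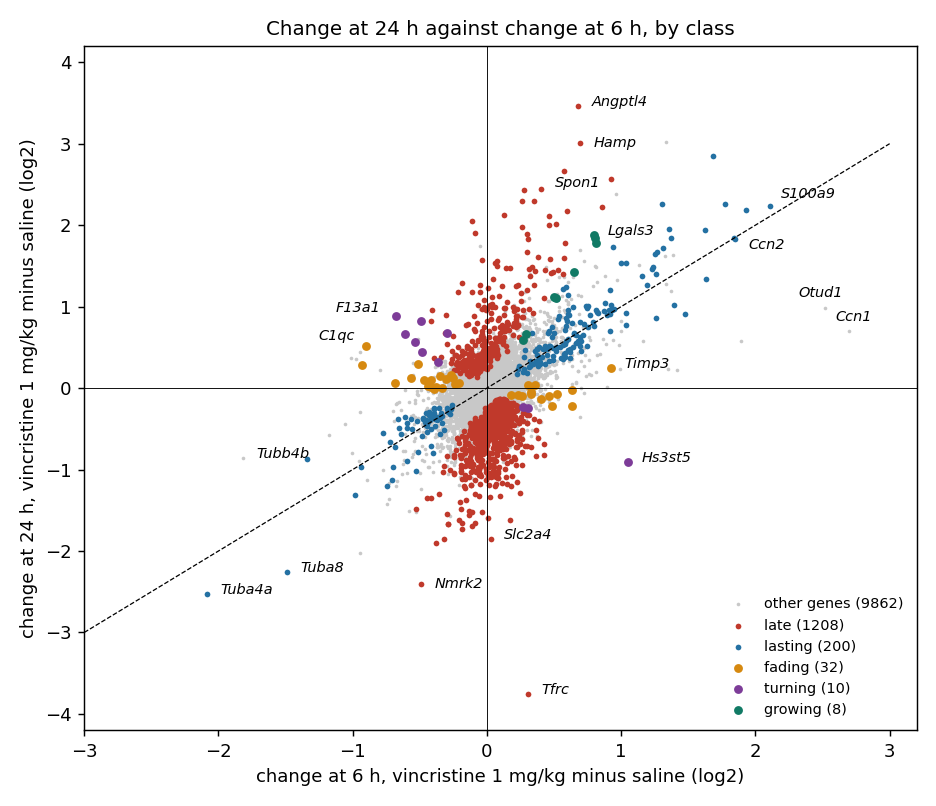
Change at 6 h (x axis) against change at 24 h (y axis) for vincristine at 1 mg/kg minus saline, in log2 units, for 11320 genes coloured by class, with the dashed line marking equal changes. The 1208 late genes form a vertical band around an x value of 0, the 200 lasting genes follow the dashed line, and the 10 turning genes lie in the upper left and lower right quadrants.

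Angptl4 and Hamp had the largest late rises. Angptl4, a secreted inhibitor of lipoprotein lipase, stood at 35.91, 39.25 and 45.97 (lowest, median and highest of 6 arrays) in saline at 24 h and at 223.1, 690.9 and 1177 in vincristine at 24 h. At 6 h it ran from 29.09 to 54.26 in saline and from 43.65 to 197.5 after vincristine. Every treated heart at 24 h was therefore above every other heart, while the 6 h groups overlapped. The change was 0.68 ± 0.44 (log2, SE) at 6 h and 3.46 ± 0.44 at 24 h, and the difference of 2.78 ± 0.63 passed the test (adjusted p = 0.00161). Spon1, a secreted matrix protein, had the same form with less spread: its medians were 143.1 and 194.3 at 6 h and 146 and 832.2 at 24 h in saline and vincristine, and its difference was 2.04 ± 0.30 (adjusted p = 4.98e-06).

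Hamp encodes hepcidin, the hormone that closes the iron exporter. Its medians were 75.17 in saline and 185.6 in vincristine at 6 h, against 75.57 and 843.3 at 24 h, a difference between the changes of 2.31 ± 0.76. The saline 6 h array with high Myl7 also held the highest saline value of Hamp, 532.2. Without both arrays of high Myl7 the difference was 1.99 and no longer passed (adjusted p = 0.0717). Chi3l1, a secreted chitinase-like protein, rose by 2.66 ± 0.34 at 24 h against 0.58 ± 0.34 at 6 h, and it was the gene among these in which treated and saline hearts did not overlap at either time. In the fit without the arrays above a ratio of 1.3 the 6 h rises of Hamp, by 0.95, and of Chi3l1 passed as well, so that both rose at both times and more at 24 h. Plb1, a phospholipase, Pla2g2a, a secreted phospholipase, and Ptgds, which makes prostaglandin D, rose by 2.44, 2.29 and 2.29 at 24 h. Orm1, an acute-phase plasma protein, rose by 2.12 from a median of 28.68 in saline to 168.8, Mgst1, a membrane glutathione transferase, by 2.05, and ceruloplasmin, Cp, the copper protein that oxidises iron, by 1.58. Their changes at 6 h, between -0.11 and 0.47, did not pass the test.

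Interferon-stimulated genes, which are switched on by interferons and by sensors of foreign nucleic acid, were mostly called at 24 h. Of 24 tested, 4 rose at 6 h and 20 rose at 24 h, against 2.05% and 12% of all genes tested, and 0 fell. Their median change was 0.23 at 6 h and 0.70 at 24 h, against 0.01 and -0.01 over all genes tested, and of the 20 called at 24 h 9 were late, 4 lasting and 7 undecided. Ifit3, which binds viral RNA complexes, stood at 38.33, 41.89 and 67.72 in saline and 49.61, 76.04 and 101.9 in vincristine at 6 h, and at 35.96, 42.51 and 50.89 against 134.4, 278.9 and 408.2 at 24 h. The 24 h groups were separate and the 6 h groups overlapped. Its change went from 0.60 ± 0.31 to 2.17 ± 0.31, a difference of 1.57 ± 0.43 (adjusted p = 0.00935).

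Isg15, a ubiquitin-like modifier, changed by 0.58 at 6 h and 1.78 at 24 h, and its difference lost its call in 12 of 37 alternative settings (adjusted p up to 0.0933). Mx2, a dynamin-like antiviral GTPase, changed by 0.04 and 1.34. A dimmer probe set of Mx2 read 0.69 and 1.67, so the absence of a 6 h change there rests on 1 probe set. Oas1a, an oligoadenylate synthetase, rose from a median of 58.62 to 177.9 at 24 h, with no heart in common, and by a difference of 1.04 between the times. The lasting members included Irf1, a transcription factor of the interferon response, with 0.62 at 6 h and 0.45 at 24 h. The count of late members was 10 without the arrays above a ratio of 1.3 and 10 after quantile normalization.

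Upstream sequences of 2 late members are shown because they hold a sequence known as the interferon-stimulated response element. The windows are the 250 bases before the annotated start in RefSeq (assembly GRCr8), 5′ to 3′ on the strand of the gene, and capitals mark each match, on either strand, to GAAA, any 2 bases and GAAA again. Ifit3 lies at chr1:241527076-241527325 and Oas1a at chr12:41330216-41330465, both on the plus strand.
Ifit3: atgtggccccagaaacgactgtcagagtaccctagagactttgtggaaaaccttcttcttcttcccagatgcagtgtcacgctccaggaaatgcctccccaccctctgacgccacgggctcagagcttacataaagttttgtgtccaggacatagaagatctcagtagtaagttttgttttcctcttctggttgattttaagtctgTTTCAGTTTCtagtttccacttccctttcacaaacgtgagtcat
Oas1a: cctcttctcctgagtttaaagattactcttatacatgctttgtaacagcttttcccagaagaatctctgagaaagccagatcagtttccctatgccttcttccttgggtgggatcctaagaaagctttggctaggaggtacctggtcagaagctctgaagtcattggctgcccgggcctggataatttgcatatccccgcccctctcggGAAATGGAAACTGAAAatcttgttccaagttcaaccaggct

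The match in Ifit3 began 44 bases before the start, and the 2 matches in Oas1a overlapped and began 41 and 35 bases before it. Windows were held for 19 of the 24 list members, and 11 of these had the motif, 5 of 7 late members and 6 of 12 others. Of the 9415 tested genes with a window 2.52% had it, as did 16 of 238 late genes that rose and 10 of 767 late genes that fell. A match is a description of the letters and not evidence of binding.

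Heart muscle genes of stress and of the fetal program split between the classes. Of 15 tested, 7 rose at 6 h and 11 at 24 h, against 2.05% and 12% of all genes. Their median change was 0.59 and 1.10, and 5 were lasting and 2 late, against 1.77% and 10.7%. The late members were Myh7 and Nppa. Myh7, the slow myosin heavy chain that the adult rat ventricle holds at a low level, stood at 2958, 3574 and 4565 in saline at 24 h and at 13110, 15330 and 18550 after vincristine, while the 6 h groups, 1108 to 4170 and 2079 to 7661, overlapped. It rose by 2.11 ± 0.31 at 24 h and differed between the times by 1.65 ± 0.44 (adjusted p = 0.00783).

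Nppa, atrial natriuretic peptide, rose by 1.98 ± 0.41 at 24 h against 0.26 ± 0.41 at 6 h. Its highest saline value at 6 h, 7743, was on the array with high Myl7 as well, and without both such arrays the difference fell from 1.72 to 1.40 and did not pass (adjusted p = 0.0807). Nppb, the related B-type peptide, did the reverse in its point values: 1.39 ± 0.33 at 6 h and 1.02 ± 0.33 at 24 h, which made it a lasting gene. Rcan1, a feedback inhibitor of calcineurin, was lasting with 1.26 and 1.40, and so was the stretch-responsive Ankrd1 with 0.59 and 0.87, although its 6 h change did not pass after quantile normalization. Csrp3, the muscle LIM protein at the Z-disc, rose at both times and more at 24 h, by 0.51 and 1.10. That difference did not pass after the arrays of high Myl7 were left out (adjusted p = 0.0573), and after quantile normalization the 6 h change of 0.36 did not pass.

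Fkbp5, a glucocorticoid-induced immunophilin, was late by a narrow margin. Its 6 h values after vincristine ran from 176.6 to 674.2 around a median of 630.4, and saline from 144.7 to 377.1, so that the 6 h change of 0.85 ± 0.34 did not pass while the 24 h change was 2.22 ± 0.34. The difference of 1.37 ± 0.48 had an adjusted p of 0.0489. Without the arrays above a ratio of 1.3 Fkbp5 rose by 1.12 at 6 h and 2.22 at 24 h, and without those of high Myl7 its difference did not pass (adjusted p = 0.111). Glucocorticoid-induced genes as a list counted 4 of 18 higher at 6 h and 13 at 24 h, against 2.05% and 12% of all genes. Their medians were 0.58 and 0.99, and the 6 h count was 10 without the arrays above a ratio of 1.3.

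**Figure D2:**
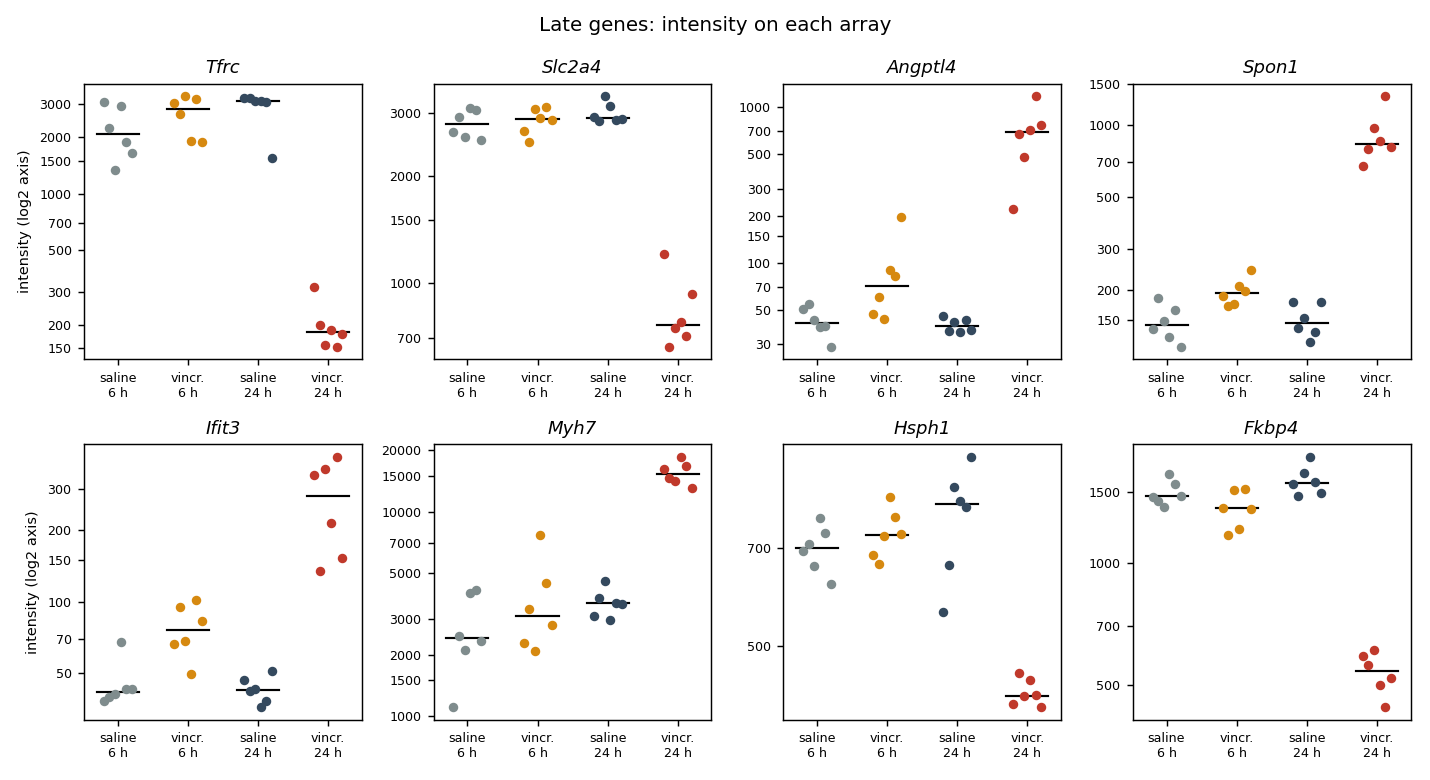
Intensity (log2-scaled axis) of 8 late genes on each array of the 4 groups, 1 point for each heart, with a line at the group median. For all 8 genes the 6 hearts given vincristine at 24 h lie apart from the 6 saline hearts at 24 h, while the groups at 6 h overlap.

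Among the late falls Tfrc stood first. Tfrc encodes the transferrin receptor, through which cells take up iron. Saline hearts read 1340, 2075 and 3093 at 6 h and 1548, 3113 and 3237 at 24 h. Vincristine hearts read 1896, 2844 and 3316 at 6 h and 152.7, 182.9 and 318.3 at 24 h. The 6 h groups overlapped, and the 24 h treated hearts were below every other heart by a wide gap. The change was 0.31 ± 0.34 at 6 h and -3.76 ± 0.34 at 24 h, with a difference of -4.07 ± 0.48 (adjusted p = 2.12e-08). Of 15 iron-handling genes tested, 0 were called at 6 h, where 3.3% of all genes were, and 6 rose and 3 fell at 24 h, against 12% and 18.4% of all genes. Slc11a2, the iron importer that works beside the transferrin receptor, was late on its brighter probe set with 0.11 at 6 h and -0.63 at 24 h, but a second probe set read 0.12 and -0.03, so the probe sets disagree.

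Genes of glucose uptake and of its first steps were lower at 24 h alone. Slc2a4, the insulin-responsive glucose transporter GLUT4, ran from 2530 to 3101 in saline and from 2497 to 3125 after vincristine at 6 h, then from 2857 to 3355 and from 663.1 to 1209 at 24 h. Its difference was -1.88 ± 0.36 (adjusted p = 0.000274), and a second probe set of the gene read 0.04 and -1.72. Hk2, the hexokinase that traps glucose in muscle, fell by 1.33 at 24 h against a change of -0.06 at 6 h, and Pfkm, muscle phosphofructokinase, fell by 0.80 against 0.04. Of its other probe sets a bright one read 0.18 and -1.0 and a dim one -0.09 and 0.10. Of 27 tested genes of hypoxia and glycolysis 3 rose at 6 h, and 6 rose and 11 fell at 24 h. The shares of all genes were 2.05%, 12% and 18.4%. Late members numbered 8, against 10.7% of all genes. Pdk4, which blocks entry of pyruvate into the mitochondrion and is kept on another list, was lasting with 1.63 and 1.94. Its 6 h call was lost in 3 of 37 alternative settings (adjusted p up to 0.0781).

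Of 40 genes of oxidative phosphorylation 0 were called at 6 h, near the 3.3% of all genes. At 24 h 19 fell and 21 were not called, against falls of 18.4% of all genes tested. Late members numbered 15, against 8.02% of all genes that were late and fell, and 6 after quantile normalization. The median change was 0.08 at 6 h and -0.15 at 24 h. Ndufs7, a subunit of complex I, read 5129, 5905 and 6779 in saline and 5674, 6350 and 6965 after vincristine at 6 h. At 24 h it read 6350, 6817 and 7450 against 4490, 5023 and 5655, a change of -0.44 ± 0.09. After quantile normalization 15 of the 40 fell and 2 rose at 24 h, 5 differences between the times were negative and 1 positive, and the median change at 24 h was -0.08. Ndufs7 fell in that setting too, by 0.35.

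Of 17 regulators of mitochondria tested 0 were called at 6 h, where 3.3% of all genes were, and 11 fell at 24 h, against 18.4%, with a median of -0.32; 9 fell after quantile normalization. Of the 11 only 4 were late and 7 stayed undecided. Dnm1l, the GTPase of mitochondrial division, fell by 0.84 ± 0.17, Opa1, the GTPase of inner membrane fusion, by 0.42 ± 0.10, and Fndc5, a PGC-1 responsive membrane protein, by 1.02 ± 0.15; their 6 h changes were 0.20, 0.24 and -0.01. Perm1, a muscle activator of the same program, fell by 1.52 at 24 h with -0.53 at 6 h and stayed undecided. Nmrk2, a muscle kinase that makes an NAD precursor, fell by 2.40 ± 0.34 at 24 h, and Acot13, a mitochondrial acyl-CoA thioesterase, by 1.10 ± 0.18. Cardiomyocyte markers counted 0 of 16 higher and 1 lower at 6 h, against 2.05% and 1.25% of all genes. At 24 h 7 were lower, against 18.4%. After quantile normalization 2 were higher and 5 lower at 24 h, with a median change of -0.01 instead of -0.13. Without that normalization, the summed intensity of the 16 at 24 h ran from 240100 to 284200 in saline and from 223100 to 245200 in vincristine. The part of this shift in the falls above was not tested.

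Ion channels and calcium-handling proteins gave 7 late members of 26 tested, against 10.7% of all genes. At 6 h 1 of the 26 was lower, against 1.25% of all genes. At 24 h 2 were higher and 12 lower, against 12% and 18.4%, and 12 were lower also after quantile normalization. Kcnd2, a pore subunit of the transient outward potassium current, read 118.9, 156.8 and 189.2 in saline and 59.8, 67.77 and 91.35 after vincristine at 24 h, against medians of 158 and 150.8 at 6 h. Its difference was -0.91 ± 0.20. Slc8a1, the sodium-calcium exchanger, fell by 0.71 and Casq2, the calcium store protein calsequestrin, by 0.56 at 24 h, each with a 6 h change of 0.11. Kcnk2, a stretch-activated potassium channel that is not on the list, fell by 1.74 on its brighter probe set, but the second probe set read -0.03, so the probe sets disagree.

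Apln, which encodes the vasodilator peptide apelin, also fell late. It ran from 349 to 447.9 in saline and 381.6 to 654.9 after vincristine at 6 h, then from 343.6 to 594.5 against 96.34 to 215.3 at 24 h. The difference of -1.80 ± 0.24 passed (adjusted p = 5.07e-07). Its receptor Aplnr changed by -0.74 ± 0.32 at 6 h, which did not pass, and fell by 1.42 ± 0.32 at 24 h, with no called difference between the times.

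Chaperones of protein folding gave a mixed picture. Of 14 heat shock chaperones tested, 0 were called at 6 h, near the 3.3% of all genes, and 6 fell and 2 rose at 24 h, against 18.4% and 12%; 5 were late and all 5 fell. Hsph1, a nucleotide exchange factor of Hsp70, read 618.4, 699.8 and 775.7 in saline and 662.6, 731.4 and 833.6 after vincristine at 6 h, and 560.9, 812.8 and 955.5 against 405, 421.2 and 456.2 at 24 h. It fell by 0.82 ± 0.11 at 24 h and differed between the times by -0.90 ± 0.15 (adjusted p = 7.42e-05). The mitochondrial pair Hspe1 and Hspd1, which form 1 folding chamber, fell by 0.54 and 0.50, with 6 h changes of 0.08 and 0.09. Hspb1, a small heat shock protein, rose by 0.69 at 24 h instead. The Hsp90 partners Stip1 and Fkbp4, which are on no list and were picked after their values were seen, fell by 0.54 ± 0.06 and 1.55 ± 0.18 at 24 h, and Fkbp4 ran from 1461 to 1830 in saline and 439.4 to 609.5 after vincristine.

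Upstream windows of Hsph1 and Hspe1 are shown because both hold 3 alternating units of the heat shock element, the sequence bound by heat shock factors. The windows have the same length, source and assembly as those above, and capitals mark matches, on either strand, to TTC, any 2 bases, GAA, any 2 bases and TTC, with overlapping matches joined. Hsph1 lies at chr12:10427118-10427367 and Hspe1 at chr9:64084077-64084326, both on the plus strand.
Hsph1: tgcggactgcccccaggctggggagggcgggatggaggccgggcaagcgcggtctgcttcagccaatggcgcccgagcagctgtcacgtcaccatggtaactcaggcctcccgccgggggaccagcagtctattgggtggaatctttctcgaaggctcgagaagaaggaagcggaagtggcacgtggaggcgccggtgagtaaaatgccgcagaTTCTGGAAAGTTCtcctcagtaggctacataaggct
Hspe1: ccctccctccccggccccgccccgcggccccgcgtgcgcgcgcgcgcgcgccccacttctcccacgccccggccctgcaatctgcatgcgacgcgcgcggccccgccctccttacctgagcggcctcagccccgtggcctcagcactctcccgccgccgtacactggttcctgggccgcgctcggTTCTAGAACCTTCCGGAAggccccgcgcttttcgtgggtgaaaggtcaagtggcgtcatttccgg

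Hspd1 lies head to head with Hspe1 on the other strand and shares 211 of the 250 bases, so the pair counts as 1 promoter. With the pair counted once, the 3-unit motif was in 2 of 4 late chaperone promoters and in 0 of 7 others, and in 0.361% of the 9415 tested genes with a window. The shorter core of GAA, any 2 bases and TTC, which every match to the longer motif contains, was in 2 of the 4 late promoters and 5 of the 7 others, and in 4.89% of the tested genes. Hspb1, which rose, has 2 such cores in its window.

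Red cell genes and MHC class II genes were also lower at 24 h. Alas2, the erythroid enzyme of heme synthesis, and Slc4a1, the anion exchanger of the red cell membrane, fell by 1.15 and 1.49 at 24 h with 6 h changes of 0.22 and -0.19. Of 7 erythroid and platelet markers tested 0 were called at 6 h, near the 3.3% of all genes, and 4 fell at 24 h, against 18.4%. Cd74, the chaperone of MHC class II, read 5246, 5555 and 6467 in saline and 2397, 2756 and 2989 after vincristine at 24 h, and 4547 to 6406 against 4354 to 6875 at 6 h. It fell by 1.07 ± 0.14 at 24 h. Of 8 class II genes 0 were called at 6 h, near the 3.3% of all genes. At 24 h 6 fell and 1 rose, against 18.4% and 12%. Only 2 differences between the times passed, those of Cd74 and of RT1-DMa, which rose by 0.32. The median change of the 8 was -0.32 at 6 h and -0.91 at 24 h. Without the arrays above a ratio of 1.3, 3 of the 8 were lower at 6 h and 3 were lasting. Without those above 1.2, 4 were lower at 6 h. More of all genes were called at 6 h in these fits too.

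Of 29 fibroblast and matrix genes tested 2 rose at 6 h, and 7 rose and 6 fell at 24 h, against 2.05%, 12% and 18.4% of all genes; 6 were late. Col15a1, a basement membrane collagen, fell by 1.21 ± 0.18 and Lum, a collagen-binding proteoglycan, by 0.87 ± 0.19 at 24 h, while Mmp14, a membrane-bound collagenase, rose by 1.25 ± 0.20; all 3 were late. Of 26 endothelial markers 1 was higher and 2 lower at 6 h, against 2.05% and 1.25% of all genes. At 24 h 8 were higher and 5 lower, against 12% and 18.4%, and 4 were late, against 10.7%. Gpihbp1, which anchors lipoprotein lipase on capillaries, was among these, late with -0.21 ± 0.13 at 6 h and 1.18 ± 0.13 at 24 h, and its 24 h values of 1091 to 1577 lay above the saline range of 496.3 to 593.5. Ramp2, a subunit of the adrenomedullin receptor, was late with -0.07 and 0.58.

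**Figure D3:**
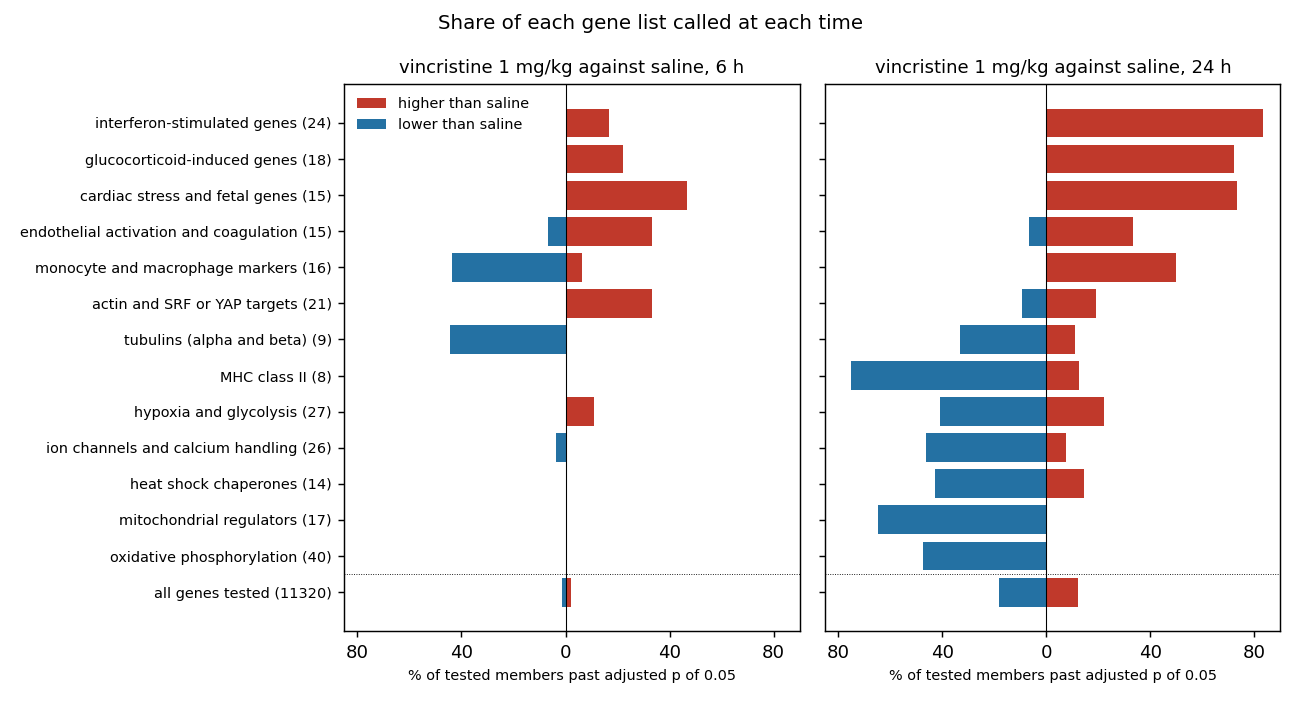
Share of the tested members of 13 gene lists called higher (red, to the right) or lower (blue, to the left) than saline at 6 h and at 24 h, in percent, with the number of members tested in brackets and all 11320 genes in the lowest bar. Oxidative phosphorylation has no call at 6 h, near the 3.3% of all genes, and 47.5% at 24 h, against 30.4%. Tubulins have 44.4% at each time, and macrophage markers lie mostly to the left at 6 h and to the right at 24 h.

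Tubulins led the lasting falls. Tuba4a, an alpha tubulin abundant in muscle, read 4732, 5187 and 6258 in saline at 6 h. The 6 hearts given vincristine read 4038, 508.3, 5966, 739.2, 726.6 and 536.6 in replicate order, so replicates 1 and 3, the arrays that stood apart, were close to or inside the saline range and the other 4 were far below it. At 24 h saline read 2958, 5990 and 6881 and vincristine 707.2, 957.4 and 1187, without overlap. The change was -2.08 ± 0.49 at 6 h and -2.53 ± 0.49 at 24 h, and the difference of -0.45 ± 0.69 did not pass (adjusted p = 0.746). Without the arrays above a ratio of 1.2 the 6 h change was -3.02 and the difference 0.49.

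Tuba8, a second alpha tubulin, was lasting with -1.49 and -2.26, and so was Tubg1, the gamma tubulin that nucleates microtubules, with -0.94 and -0.96. The 6 h call of Tuba8 was lost in 5 of 37 alternative settings (adjusted p up to 0.111). That of Tubg1 was lost in 1, without replicate 4 of vincristine at 6 h (adjusted p = 0.0661). Beta tubulins differed. Tubb4b fell by 1.82 ± 0.42 at 6 h and had a change of -0.86 ± 0.42 at 24 h, and Tubb5 fell by 0.94 at 6 h with -0.30 at 24 h. In the fit of all arrays neither differed between the times (adjusted p = 0.316 and 0.280). Without the arrays above a ratio of 1.3 both did: Tubb4b went from -2.19 to -0.86, a difference of 1.33, and Tubb5 from -1.16 to -0.30, a difference of 0.87. Of 9 alpha and beta tubulins tested 4 fell at 6 h, against 1.25% of all genes. At 24 h 3 fell and 1 rose, against 18.4% and 12%. Tubulin genes share sequence, and a probe set may bind the RNA of more than 1.

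Ccn2 and S100a9 were among the largest lasting rises. Ccn2, a matrix-associated growth factor, read 417.5, 610.9 and 709.5 in saline and 591.7, 2714 and 4177 after vincristine at 6 h, and 603.5, 769.8 and 915.9 against 1869, 2721 and 4187 at 24 h. At 6 h 1 treated heart, the replicate 3 that stood apart, lay within the saline range. The changes were 1.85 ± 0.40 and 1.83 ± 0.40, and the difference of -0.02 ± 0.57 had a wide error. Fgl2, a membrane prothrombinase of endothelium and macrophages, had 1.48 and 0.91, and Ndrg1, a stress-responsive gene, 0.62 and 0.49. S100a9, a calcium-binding protein of neutrophils, changed by 2.11 and 2.24. The summed intensity of 10 other neutrophil markers ran from 386.2 to 1047 after vincristine and 378.5 to 459.4 in saline at 6 h, and from 1112 to 1843 against 384.7 to 487.2 at 24 h; its part in the rise of S100a9 was not tested. Without the arrays above a ratio of 1.3 the 6 h changes were 2.21 for Ccn2, 1.63 for Fgl2 and 2.60 for S100a9, and all 3 stayed lasting. The 6 h call of S100a9 was lost in 3 of 37 alternative settings (adjusted p up to 0.0835). The 24 h call of Fgl2 was lost in 3 as well (adjusted p up to 0.074).

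Tnfrsf12a, the receptor of the cytokine TWEAK, was lasting with 1.93 and 2.18, and Adamts1, a secreted protease of the matrix, with 1.84 and 1.85. Of 15 genes of endothelial activation and coagulation 5 were lasting, 0 late and 0 fading, against 1.77%, 10.7% and 0.283% of all genes. Ccl2, the monocyte chemokine, had 1.27 and 1.67. Among the lasting falls Hey1, a target of Notch, read 365.6 to 416.7 in saline and 136 to 370.6 after vincristine at 6 h and 310.3 to 400.7 against 96.1 to 183.6 at 24 h, with changes of -0.99 ± 0.25 and -1.32 ± 0.25. Leaving out the arrays above a ratio of 1.3 gave 6 h changes of 2.35 for Tnfrsf12a, 2.20 for Adamts1, 1.44 for Ccl2 and -1.16 for Hey1, each still lasting.

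Fading genes were few, and most had small changes. Of the 374 genes called at 6 h 8.56% were fading, and 208 (55.6%) were called in the same direction at 24 h. The rises that faded included parts of the actin skeleton. Flna, the actin cross-linker filamin A, read 903.4, 1237 and 1488 in saline and 1442, 1807 and 2514 after vincristine at 6 h, and 1118, 1250 and 1577 against 972.9, 1291 and 1490 at 24 h. The groups differed at 6 h with slight overlap and lay together at 24 h, with changes of 0.63 ± 0.13 and -0.02 ± 0.13. Its difference of -0.65 did not pass after quantile normalization, where it was -0.48 (adjusted p = 0.0645).

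Tpm4, a cytoskeletal tropomyosin, faded from 0.63 ± 0.13 to -0.22 ± 0.13 and passed in that setting too. Mapre1, the end-binding protein EB1 that tracks growing microtubule tips, faded from 0.33 ± 0.09 to -0.07 ± 0.09, with the treated values of 685.8 to 945.8 above the saline values of 492.3 to 680.9 at 6 h. Timp3, an inhibitor of matrix metalloproteinases, rose by 0.93 ± 0.16 at 6 h, with no heart in common between the groups, and stood at 0.25 ± 0.16 at 24 h. Its difference of -0.67 (adjusted p = 0.0404) did not pass after quantile normalization. Of 21 actin-related genes tested 7 rose at 6 h, against 2.05% of all genes, and 2 of these faded, against 0.124% that rose and faded. The fit without the arrays above a ratio of 1.3 gave 12 rises at 6 h and 5 fading members.

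The falls that faded included complement genes of macrophages. C1qc, a chain of complement C1q, read 285.8, 387 and 490.4 in saline and 94.85, 190.3 and 383.9 after vincristine at 6 h, then 310, 334.9 and 375 against 384, 499.3 and 572.2 at 24 h. Treated hearts lay low at 6 h with overlap, and above every saline heart at 24 h, although the 24 h change of 0.51 ± 0.22 did not pass (adjusted p = 0.0695). The 6 h change was -0.90 ± 0.22 and the difference 1.42 ± 0.31. Without the arrays above a ratio of 1.3, and after quantile normalization, C1qc was called in both directions. C1qa behaved alike, with -0.93 and 0.28, and the third chain, C1qb, was called in both directions, with -0.61 ± 0.17 at 6 h and 0.66 ± 0.17 at 24 h.

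Macrophage markers as a list turned over between the times. Of 16 tested 7 fell and 1 rose at 6 h, against 1.25% and 2.05% of all genes. At 24 h 8 rose and 0 fell, against 12% and 18.4%. Of the differences between the times 9 were positive and none negative, against 3.53% and 8.75%. The median went from -0.41 to 0.40. F13a1, coagulation factor XIII subunit A of resident macrophages, read 117.5, 133.8 and 157.2 in saline and 56.66, 70.26 and 132.4 after vincristine at 6 h, and 99.44, 120.2 and 151.8 against 165.9, 224.5 and 347.9 at 24 h, with a difference of 1.56 ± 0.29 (adjusted p = 0.000197). Lyve1, a hyaluronan receptor, was late with -0.41 and 0.95, and the scavenger receptor Cd163, picked after its values were seen, with -0.30 and 0.90.

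The members were not alike. Stab1, a scavenger receptor, fell by 1.06 ± 0.21 at 6 h and had -0.44 ± 0.21 at 24 h, and Cd14, a receptor of bacterial lipopolysaccharide, rose by 0.94 and 1.74. The summed intensity of the 20 markers on the array ran from 3510 to 5517 in saline and 2636 to 4662 in vincristine at 6 h, and from 3867 to 4505 against 5427 to 7131 at 24 h. With the arrays above a ratio of 1.3 left out the counts were 11 lower and 1 higher at 6 h, and 10 higher and 1 lower at 24 h, and Lyve1 and Cd163 were called in both directions.

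**Figure D4:**
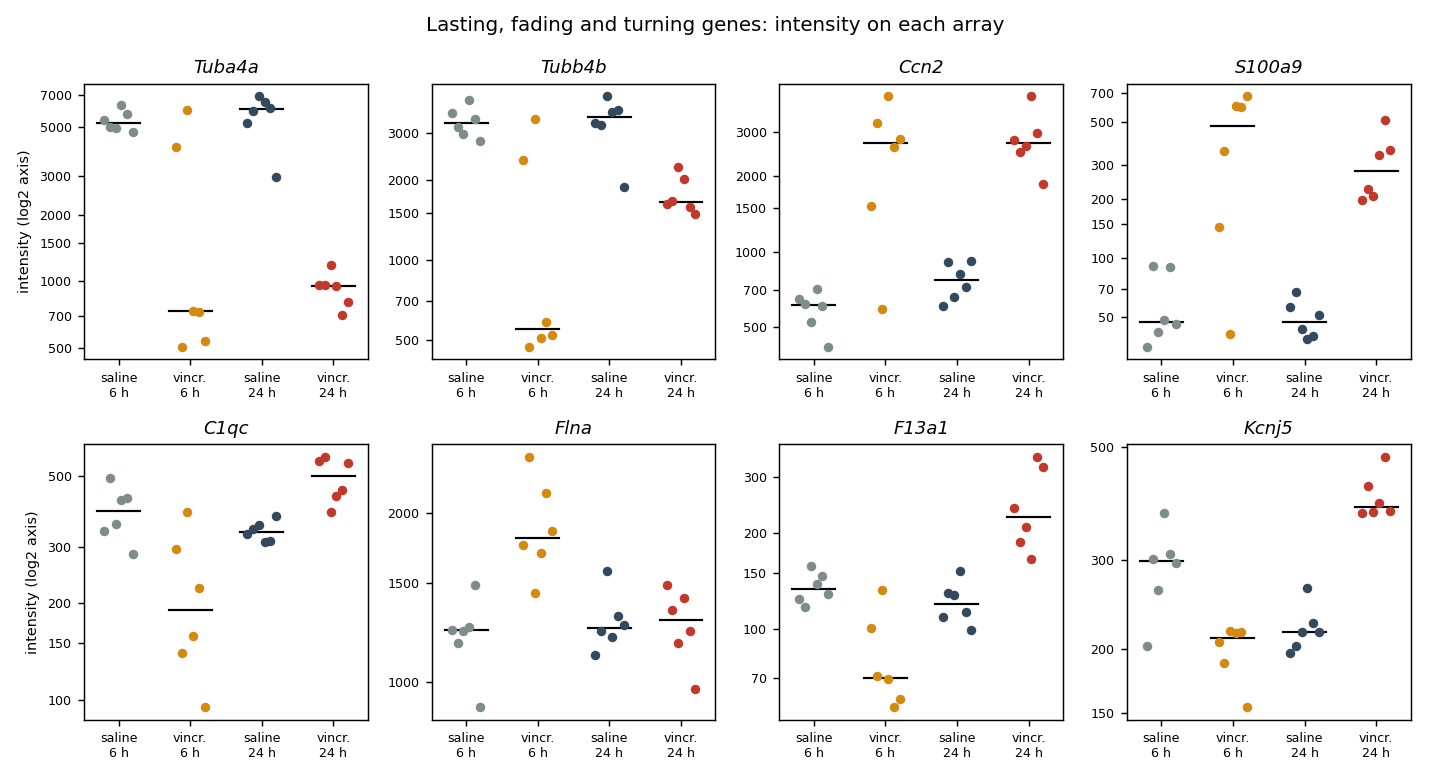
Intensity (log2-scaled axis) of 8 genes called at 6 h on each array of the 4 groups, 1 point for each heart, with a line at the group median. In the group given vincristine at 6 h 2 hearts keep Tuba4a at 4038 and 5966 while 4 lie between 508.3 and 739.2, and the medians of F13a1 and Kcnj5 lie below saline at 6 h and above it at 24 h.

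The 10 turning genes also held an ion channel and a sulfotransferase. Kcnj5, a subunit of the acetylcholine-gated potassium channel, read 202.9, 298.5 and 370.6 in saline and 153.8, 210.8 and 217 after vincristine at 6 h, and 197, 216.1 and 263.7 against 371.1, 381.9 and 478.5 at 24 h. Its difference was 1.31 ± 0.17 (adjusted p = 1.85e-07), although saline itself was higher at 6 h than at 24 h. Hs3st5, a heparan sulfate sulfotransferase, went the other way, with 1.05 ± 0.30 and -0.91 ± 0.30, but a dimmer probe set read 0.28 and -0.11. The imprinted RNA H19 had -0.54 and 0.57, and Slc25a22, a mitochondrial glutamate carrier, had -0.30 and 0.68 with no heart in common between the groups at either time; C1qb, H19 and Slc25a22 were picked after their values were seen.

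Among the 8 growing genes Lgals3, a galectin of macrophages and injured tissue that was picked in the same way, rose from 296.4 to 460.2 in saline to 532.4 to 882.8 at 6 h, and from 322.8 to 406.4 to 1130 to 1665 at 24 h. Treated and saline hearts did not overlap at either time, and the changes were 0.80 ± 0.17 and 1.88 ± 0.17. The largest rises at 6 h, by contrast, stayed undecided. Ccn1, a matrix-associated immediate early gene, rose by 2.70 ± 0.71 at 6 h on values from 141 to 3184 and had 0.71 ± 0.71 at 24 h, a difference of -1.99 ± 1.00 that did not pass. Otud1, a deubiquitinase, had 2.52 and 0.98. Without the arrays above a ratio of 1.3 both differences passed, at -2.28 and -2.05.

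Saline hearts gave few calls between the times in the main fit. The comparison of saline at 24 h with saline at 6 h gave 1 call of 11320 (0.00883%) with limma. It gave 4 calls after quantile normalization and 128 with array weights. At an unadjusted p below 0.05 there were 1426 genes, where chance gives about 566, so the saline hearts were not shown to be alike. Vincristine hearts at 24 h against 6 h gave 2020 calls (17.8%), 907 higher (8.01%) and 1113 lower (9.83%). Of the 1390 genes with a called difference 1114 were called in the treated comparison and 0 in saline. Per1, a clock gene, changed by 0.04 at 6 h and 0.43 at 24 h, and Cdkn1a, the cell cycle inhibitor p21, by 0.19 and 0.54, none of which passed. Top2a, a topoisomerase of dividing cells, fell by 0.25 at 24 h on intensities near 50.97 in saline, with no called difference between the times.

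The lower dose of 0.1 mg/kg gave none of these responses at the threshold: 0 calls with limma at 6 h, at 24 h and in the difference, and 441, 316 and 386 genes at an unadjusted p below 0.05. It held replicates 1 to 5 at each time. Replicate 5 at 24 h stood apart, with a ratio of 1.42, nearest to colchicine at 0.2 mg/kg and 6 h. It read 760.1 for Tuba4a, against 5284 to 6584 on the other arrays of its group. No dose comparison without this array is given. The change from 6 h to 24 h in treated hearts differed between the doses for 710 genes (6.27%), 309 (2.73%) more positive and 401 (3.54%) more negative at 1 mg/kg. Tfrc changed by 0.01 at 6 h and 0.04 at 24 h at the lower dose, and the dose difference of its time change was -4.09 (adjusted p = 9.31e-08). For Spon1 it was 2.27, for Slc2a4 -1.78, for F13a1 1.73 and for Hsph1 -0.75, all past the threshold. For Ifit3 the dose difference of 1.29 did not pass (adjusted p = 0.0722), nor did that of Oas1a.

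Vinblastine, a vinca alkaloid that differs from vincristine by a methyl group in place of a formyl group, was given at 3 mg/kg, and colchicine, which binds tubulin at another site, at 2 mg/kg. The doses differ and the saline hearts are shared, so the values stand side by side and no difference between compounds was tested. The time difference was called for 502 genes after vinblastine and 2138 after colchicine, and for 923 and 3191 without the arrays above a ratio of 1.3. Tfrc changed by -0.54 at 6 h and -2.66 at 24 h after vinblastine and by -0.13 and -2.98 after colchicine, and Kcnj5 by -0.48 and 0.66 and by -0.50 and 0.54. Angptl4 read 1.81 and 1.18 after vinblastine, whereas it read 0.60 and 3.68 after colchicine. Gpihbp1 read 0.01 and 1.00 after vinblastine, whereas it read 0.18 and 0.32 after colchicine. Replicate 1 of vinblastine at 6 h read 404.5 for Tfrc, against 1499 to 2130 on the other 5 arrays, and replicate 1 of colchicine at 24 h read 3292, against 147.7 to 263.8; both were above a ratio of 1.3, as was replicate 4 of colchicine at 6 h. Without such arrays Tfrc changed by -0.18 and -2.66 after vinblastine and by -0.21 and -3.62 after colchicine. Angptl4 then read 1.07 and 1.18 after vinblastine and 0.67 and 4.25 after colchicine, and Gpihbp1 -0.10 and 1.00 and 0.17 and 0.39.

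Of 4961 tested probe sets without a gene name in the annotation used, 32 were higher and 19 lower at 6 h, 304 higher and 617 lower at 24 h, and the difference between the times was positive for 106 and negative for 259. They are counted here and not named.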

How the data were processed

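RNA of rat hearts was hybridised to 82 1-colour arrays of 31099 probe sets. The authors deposited linear intensities between 9.755 and 39497; how they were summarised and normalized is not given in the sources used here. Array medians ran from 57.61 to 63.31, and the number of arrays limits the precision. Values were used as log2(intensity + 16) with no further scaling, so a log2 change understates the change of dim genes. Of the probe sets 57 were controls, 20832 had 1 gene symbol, 436 several and 9780 none in the platform annotation; the brightest probe set stood for each of 4526 genes that had several. Genes above the 40th percentile on at least 5 arrays were kept. A linear model of 14 groups (68 residual degrees of freedom) was fitted with limma 3.58.1 in R 4.3.3, tested on simulated data, and p-values were adjusted by Benjamini-Hochberg over the 11320 genes. Columns of other samples numbered 0.

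Genes named were the 10 largest differences in each direction, the 6 largest of each class and direction, up to 5 members of each list, and a fixed set; some were left out for length. C1qb, H19, Slc25a22, Lgals3, Hspd1, Stip1, Fkbp4, Slc11a2, Oas1a, Tubb5, Cd163 and Irf1 were picked after their values were seen. The comparison and the lists were chosen with earlier results of these data known.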

Additional observations from a re-analysis of the deposited data

Results flagged for a closer look

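Single arrays stood far from the other 5 of their group in 24 of 368 groups of values examined, where chance gives about 1 in 20, or 18. Saline 24 h replicate 6 accounted for 9 of them: it was low for Tfrc (1548), Tuba4a (2958), Tubb4b (1876), Tubg1 (323.4), Slc8a1 (1616), Hspe1 (5441), Mmp14 (417) and Cdkn1a (441.6), and high for Cd14 (127.8). Saline 6 h replicate 2 was high for Hamp (532.2) and Nppa (7743). Saline 24 h replicate 1 was high for Hamp (137.8) and Opa1 (703) and low for H19 (343.6), and replicate 3 was high for Hspb1 (4150) and Tpm4 (2396). Saline 6 h replicate 4 was high for Ifit3 (67.72). Among vincristine arrays at 24 h, replicate 5 was high for Cp (597.8) and Ccl2 (374.3) and low for H19 (475.9), and replicate 1 was high for Tfrc (318.3). At 6 h, vincristine replicate 5 was high for Apln (654.9), replicate 6 for Alas2 (1045) and replicate 4 for Ccn1 (3184).

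The change at 24 h differed from that at 6 h, by the test of the difference itself, for 64 of the 92 genes named, many of which were named because of it. The difference (log2) was positive for Angptl4 2.78, Hamp 2.31, Plb1 2.16, Mgst1 2.16, Chi3l1 2.09, Spon1 2.04, Pla2g2a 2.03, Orm1 2.00 and Ptgds 1.94. Smaller positive differences were those of Nppa 1.72, Myh7 1.65, Ifit3 1.57, F13a1 1.56, C1qc 1.42, Gpihbp1 1.39, Fkbp5 1.37, Lyve1 1.37 and Kcnj5 1.31, and of Mx2 1.3, C1qb 1.27, C1qa 1.22, Isg15 1.2, Cd163 1.2, Cp 1.11, H19 1.10, Lgals3 1.09, Mmp14 1.04, Oas1a 1.04, Slc25a22 0.98, Ramp2 0.66, Csrp3 0.59 and RT1-DMa 0.50.

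The difference was negative for Tfrc -4.07, Hs3st5 -1.96, Nmrk2 -1.91, Slc2a4 -1.88, Apln -1.80, Kcnk2 -1.55, Fkbp4 -1.42, Alas2 -1.37 and Slc4a1 -1.3. It was also negative for Hk2 -1.27, Acot13 -1.19, Dnm1l -1.04, Col15a1 -1.04, Cd74 -1.03, Fndc5 -1.02, Kcnd2 -0.91, Lum -0.91 and Hsph1 -0.90, and for Tpm4 -0.85, Pfkm -0.84, Slc8a1 -0.82, Slc11a2 -0.73, Casq2 -0.67, Timp3 -0.67, Opa1 -0.66, Flna -0.65, Hspe1 -0.61, Stip1 -0.59, Hspd1 -0.58, Ndufs7 -0.52, Mapre1 -0.40 and Myh6 -0.36.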

How the results depend on the processing

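The calls at 24 h, the difference between the times and the late class stayed within 1.5 times their counts with each of 24 arrays left out in turn (2981 to 3464, 1044 to 1653 and 945 to 1361), whereas the classes that need a call at 6 h did not. Calls at 6 h ran from 31 to 717, fading genes from 4 to 71 and lasting genes from 18 to 370. At 6 h the count was 249, 175 and 230 without saline 6 h replicates 1, 3 and 6, and 717, 31, 63 and 119 without vincristine 6 h replicates 3, 4, 5 and 6. Fading genes numbered 17 without saline 6 h replicate 3 and 49, 52, 71, 4, 9 and 17 without vincristine 6 h replicates 1 to 6. Lasting genes numbered 96 and 114 without saline 6 h replicates 3 and 6, and 370, 18, 31 and 63 without vincristine 6 h replicates 3 to 6.

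For calls at 6 h, fading and lasting genes in that order, the counts were 731, 66 and 397 with only the 4 groups fitted, 746, 102 and 367 at a threshold of 0.1, 1395, 152 and 726 without arrays of ratio over 1.3 and 1812, 266 and 861 over 1.2. The last pair of settings, and leaving out arrays of high Myl7, were chosen after seeing the data. Fading genes numbered 62 without the arrays whose description ends in _2. From calls alone, with no test of the difference, fading genes numbered 156 and late genes 3221. Array weights gave 2158 differences, 1949 late genes, 1881 dose differences and 128 saline calls; saline had 4 calls after quantile normalization and 0 with the mean of probe sets.

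After quantile normalization the split of higher to lower was 675 to 575 for the difference, 205 to 225 at 6 h, 1845 to 1835 at 24 h and 539 to 539 for late genes, of which 818 were among the 1208. The corresponding splits were 1268 to 1049 for vincristine at 24 h against 6 h, 496 to 355 for the dose difference, 131 to 86 for lasting and 8 to 36 for fading genes. The cause was not tested.

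Same-numbered arrays share only a number: over 36 pairs the correlation of their deviations ran from -0.35 to 0.32, and 6 of 24 arrays correlated best with their own number. With the replicate number as a block, in a fit of the 4 groups, there were 865 calls at 6 h, 81 fading, 473 lasting and 1430 late genes and 1719 differences. Of the 92 named genes, each followed on 1 quantity, 63 lost no call in any setting and 0 turned sign. The 63 include Per1 and Cdkn1a, which had no call in the main fit and gained 1 in 6 and 3 settings. Lasting genes were followed only on the smaller of their 2 changes, so the count does not cover their other call. In 37 settings the difference lost its call in 22 for Fkbp5, 15 for Timp3, 12 for Isg15, 10 for Nppa, 9 for Csrp3 and 5 for Hamp, and the 6 h change in 9 for Tubb5, 7 for Ccl2, 5 for Ankrd1 and 2 for Tuba4a. The uncalled difference of Tuba4a, -0.45, was 0.49 without arrays of ratio over 1.2.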
